A study of Mus musculus with 48 samples.

Results

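Chin skin at catagen was compared with chin skin at refractory telogen across all genes, using the 6 chin libraries with those stage labels. They were 6 of the 48 distinct libraries of the series, 43 of which made up the table of skin domains. All 6 held RNA of whole skin from the chin of C57BL/6 mice, with no transgene, mutant allele or treatment in the labels and with no age given there. The groups were chin catagen, with 3 libraries, and chin refractory telogen, the early part of the second telogen, also with 3 libraries. The labels did not say whether the 3 libraries of a group came from separate mice, so the p-values below measure only the spread between these libraries, which may be technical.

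The hair follicle cycles between growth (anagen), involution (catagen) and rest (telogen). In anagen, matrix keratinocytes at the base of the follicle divide and differentiate into the hair shaft and the inner root sheath, while follicle melanocytes pass pigment to the shaft. In catagen division stops and the lower follicle regresses through cell death, and in telogen the short follicle keeps its bulge stem cells, its hair germ and a condensed dermal papilla. Early telogen is called refractory because neighbouring growth signals do not readily start a new cycle, a state linked in dorsal skin to BMP signalling.

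Expression was measured as FPKM, fragment counts scaled to transcript length and to library size, which allows levels to be compared between genes. Levels compared between libraries depend further on how the libraries are scaled. Low FPKM values moved in steps, and the size of the steps gave an estimated depth of about 12400000 to 18000000 fragments in catagen and 10100000 to 13900000 fragments in refractory telogen. The groups were compared with limma, a linear model fitted to log2(FPKM + 1) of all 17726 genes that reached 0.5 FPKM in at least 2 of the 6 libraries. A gene was called at a Benjamini-Hochberg adjusted p under 0.05 over those genes, two-sided, and "rose" or "fell" below is used only of genes so called. Log2 changes are refractory telogen minus catagen on the log2(FPKM + 1) scale, which understates the change of low genes.

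The defining transcripts of skin were present in every library. The basal keratins Krt5 and Krt14 ran from 887 to 1603 and from 2131 to 3221 FPKM, and the fibroblast proteoglycan Dcn from 282 to 992 FPKM. Tissue other than skin appeared as well. In refractory telogen replicate 2 the saliva proteins Bpifa2 (3806 FPKM), Smr3a (1499 FPKM), Pip (340 FPKM) and Dcpp1 (283 FPKM) were abundant, while none of them passed 0.84 FPKM in the other 5 libraries. The summed level of the 12 sweat and salivary gland genes was 6173 FPKM in that library and 29.2 to 30.5 FPKM in the others, so counts were also made without it. They were the same in 37 of the 55 gene lists, and for the other 18 both counts are given below. Its gland genes took 0.643% of all FPKM. Amy1, a salivary amylase, read 16.7, 230 and 17.6 FPKM in refractory telogen against 4.35 to 5.07 in catagen, and its log2 change was 2.89 with that library and 1.66 without it. Of the 7 gland genes tested 2 rose and 1 fell, and 3 rose and 1 fell without that library. The Amy1 call was lost when any catagen library was left out (limma adjusted p = 0.0888 to 0.0951).

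Refractory telogen replicate 2 also stood apart in its other genes. Over 9561 genes of at least 5 FPKM, the median absolute log2 difference was 0.18 and 0.17 between it and its fellow replicates, against 0.10 between replicates 1 and 3 and 0.10 to 0.12 among the catagen libraries. Between the stages it was 0.43 to 0.48. No pair of libraries agreed within counting noise, so none was treated as a repeat deposit of another. In 42 of the 55 gene lists, the summed level of this library lay between the catagen mean and the other refractory telogen libraries.

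**Figure D1:**
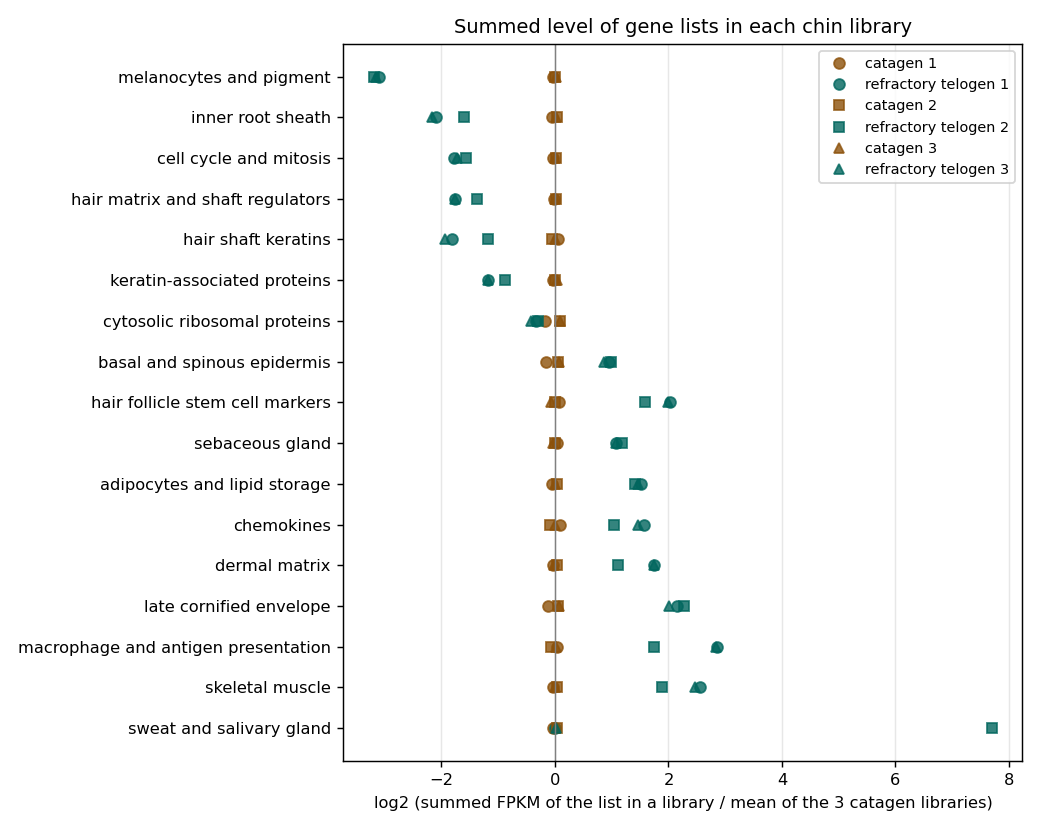
Each point is the summed FPKM of a gene list in 1 library, as log2 of its ratio to the mean of the 3 catagen libraries (brown, catagen, green, refractory telogen, with circle, square and triangle for replicates 1, 2 and 3). The catagen libraries lie close together, the refractory telogen libraries lie apart from them in each list shown except sweat and salivary gland, where refractory telogen replicate 2 alone reaches a sum of 6173 FPKM.

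Of the 17726 genes tested, 9781 passed the threshold (55.2%), 6143 higher (34.7%) and 3638 lower (20.5%) in refractory telogen. Changes of at least 2 on the log2 scale were found for 267 higher and 164 lower genes, and changes of at least 1 for 2040 and 872. The catagen and refractory telogen values did not overlap in 63.9% of all tested genes, among them 9721 of the called genes. Without refractory telogen replicate 2 the counts were 6409 higher and 3670 lower. The median change of all tested genes was 0.14, and with libraries scaled by the median of ratios the higher share of calls was 48.7% in place of 62.8%, with 4792 genes higher and 5040 lower. A gene list is therefore read below against that median and against the share of all genes called, and the lists were chosen with earlier results of these data known.

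Pigment genes were among the deepest falls. Mlana, a melanosome protein (chr19:29697824-29708634, plus strand, GRCm38), read 96.3, 111 and 104 FPKM in catagen and 6.14, 2.71 and 3.83 FPKM in refractory telogen. Its refractory telogen values were all far below its lowest catagen value, and it fell by 4.38 on the log2 scale (SE 0.23, n = 3 and 3, limma adjusted p = 3.98e-05). Tyrp1, an enzyme of eumelanin synthesis, read 44.9, 46.8 and 49.2 FPKM in catagen and 1.52, 0.94 and 1.67 in refractory telogen, a fall of 4.35 (SE 0.13). Trpm1, a melanocyte cation channel, read 28.8, 29.6 and 31.9 FPKM and then 0.48, 0.97 and 0.89, a fall of 4.14 (SE 0.13). Pmel, which forms the fibrils on which melanin is laid down, read 89.4, 91.2 and 99.1 FPKM in catagen and 4.89, 4.10 and 3.60 in refractory telogen. Pmel overlaps Cdk2 and Dgka on the other strand, and these libraries do not keep strand.

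Over the whole pigment list, 14 of 15 genes fell and 1 rose, with a median change of -2.41. The summed level went from 449 ± 9.19 FPKM (SD, n = 3) to 50.7 ± 1.33 FPKM (SD, n = 3), 8.86-fold lower, and leaving out refractory telogen replicate 2 changed no count in it. Mitf, the master regulator of melanocytes that other skin cells also express, fell by 0.39 (SE 0.09, limma adjusted p = 0.0123). It went from 9.88, 11.1 and 10.4 FPKM to 7.67, 8.61 and 7.04 FPKM. Sox10, a transcription factor of melanocytes and also of Schwann cells, rose by 0.51 (limma adjusted p = 0.0268) and did not pass with scaling by the median of ratios. Both were singled out after their values were seen. In whole skin, fewer cells of a type and less RNA in each cell cannot be told apart, here and in every group below.

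The promoters of 2 of these genes, the 250 bases before the RefSeq start on GRCm38.p6, are shown because they hold TCATGTG, the M-box recognised by the MITF family of factors. The letters were searched on both strands and are in capitals. The motifs were chosen with the expression values known, and a match is a description of the sequence.
Tyrp1, chr4:80833963-80834212, plus strand: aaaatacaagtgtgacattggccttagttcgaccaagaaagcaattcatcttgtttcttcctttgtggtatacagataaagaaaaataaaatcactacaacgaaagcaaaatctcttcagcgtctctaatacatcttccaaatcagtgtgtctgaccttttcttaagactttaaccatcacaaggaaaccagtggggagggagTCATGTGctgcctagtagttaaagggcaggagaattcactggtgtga
Trpm1, chr7:64153585-64153834, plus strand: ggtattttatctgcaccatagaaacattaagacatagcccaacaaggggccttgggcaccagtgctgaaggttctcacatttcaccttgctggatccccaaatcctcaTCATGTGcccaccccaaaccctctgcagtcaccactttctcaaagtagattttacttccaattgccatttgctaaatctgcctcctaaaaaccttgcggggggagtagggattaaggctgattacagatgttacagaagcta
The M-box was present in 6 of the 10 pigment genes with a promoter in the RefSeq table, Tyr, Tyrp1, Dct, Slc24a5, Mc1r and Trpm1, and in 3.72% of all 27025 promoters.

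Genes of cell division fell almost without exception. Ccnb1, the cyclin that drives entry to mitosis, read 41.0, 38.3 and 41.9 FPKM in catagen and 6.22, 6.72 and 5.20 in refractory telogen, a fall of 2.56 (SE 0.10, limma adjusted p = 1.88e-05). Cdk1, the kinase that Ccnb1 activates, read 76.9, 65.7 and 74.2 FPKM and then 9.06, 18.1 and 8.94 FPKM, with refractory telogen replicate 2 the highest of its group. Birc5 (survivin) and Tk1, a thymidine kinase of S phase, fell by 2.26 and 2.28. Of the 38 genes of the list 37 fell and none rose, with a median of -1.69 and a summed level of 880 ± 15.4 FPKM at catagen and 273 ± 20.2 FPKM at refractory telogen. The 1 member not called was Ttk, a spindle checkpoint kinase, at 3.81 to 4.40 FPKM in catagen and 4.11 to 4.68 in refractory telogen (limma adjusted p = 0.406).

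Promoters of Ccnb1 and Cdk1 are shown with capitals on CCAAT, the box bound by the factor NF-Y, on either strand (ATTGG on the other), and on TTTGAA or TTTAAA, core letters of the cell cycle homology region that silences mitotic genes outside division.
Ccnb1, chr13:100786487-100786736, minus strand: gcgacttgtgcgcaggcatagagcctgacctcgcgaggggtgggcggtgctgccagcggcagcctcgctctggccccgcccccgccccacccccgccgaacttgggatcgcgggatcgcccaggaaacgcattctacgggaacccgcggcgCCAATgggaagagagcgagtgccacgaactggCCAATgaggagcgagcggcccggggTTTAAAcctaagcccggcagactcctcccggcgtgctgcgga
Cdk1, chr10:69352913-69353162, minus strand: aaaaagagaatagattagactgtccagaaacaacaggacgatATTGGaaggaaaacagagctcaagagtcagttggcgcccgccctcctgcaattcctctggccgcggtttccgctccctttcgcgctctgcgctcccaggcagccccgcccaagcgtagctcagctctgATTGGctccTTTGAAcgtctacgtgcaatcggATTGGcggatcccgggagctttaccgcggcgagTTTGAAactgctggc
CCAAT stood in the promoters of 26 of the 33 cell cycle genes with a sequence (78.8%), against 37.49% of all promoters. TTTGAA or TTTAAA stood in 17 of the 33 and in 28.12% of all.

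Transcription factors of the hair matrix fell with the division genes, 13 of 16 tested, with none higher and a median of -1.56. Msx2, a homeobox factor needed to sustain shaft differentiation, read 93.2, 98.0 and 98.5 FPKM in catagen and 17.6, 28.7 and 16.2 in refractory telogen, a fall of 2.20 (SE 0.20, limma adjusted p = 0.000241). Lef1, the WNT effector of shaft precursors, read 36.0, 37.8 and 31.7 FPKM and then 4.30, 8.72 and 4.69 FPKM, a fall of 2.44. Lef1 overlaps a predicted gene on the other strand. Dlx4 and Dlx1 fell by 2.41 and 2.28. The 3 members not called, Vdr, Runx1 and Trps1, changed by -0.10, -0.13 and -0.04.

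Inner root sheath genes were among the most abundant transcripts in catagen and then fell. Krt71, a keratin of all sheath layers, read 11949, 11163 and 11405 FPKM in catagen and 2471, 3233 and 2370 in refractory telogen, a fall of 2.11 (SE 0.15, limma adjusted p = 0.000101). Krt28 fell by 2.87 and Krt73 by 2.57, and in both refractory telogen replicate 2 was the highest of its group (528 FPKM against 233 to 258 for Krt28). Of the 11 sheath genes 10 fell, with a median of -1.96, and the sum went from 29000 ± 808 to 7590 ± 1666 FPKM (SD, n = 3 each). Gata3, a regulator of sheath fate that other skin cells also express, read 223 to 247 FPKM in catagen and 211 to 282 FPKM in refractory telogen and was not called.

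Keratins of the hair shaft followed. Krt35, an early keratin of the matrix and cuticle, read 1145, 1184 and 1183 FPKM in catagen and 116, 215 and 103 FPKM in refractory telogen, a fall of 3.08 (SE 0.26, limma adjusted p = 0.000189). Krt82 (107, 104 and 103 FPKM, then 17.9, 30.4 and 14.8), Krt40 and Krt32 fell by 2.33, 2.19 and 2.01. Of 14 shaft keratins 13 fell and none rose, with a median of -1.55 (-1.76 without refractory telogen replicate 2). Krt84, the member not called, read 34.5 to 39.5 FPKM in catagen and 37.4, 23.7 and 36.4 in refractory telogen.

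The promoters of Krt31 and Krt32, neighbours in the type I keratin cluster, hold CTTTGAA near their far ends (capitals), letters bound by the LEF1 and TCF family. Krt31 read 1342, 1125 and 1188 FPKM in catagen and 276, 417 and 250 FPKM in refractory telogen.
Krt31, chr11:100050552-100050801, minus strand: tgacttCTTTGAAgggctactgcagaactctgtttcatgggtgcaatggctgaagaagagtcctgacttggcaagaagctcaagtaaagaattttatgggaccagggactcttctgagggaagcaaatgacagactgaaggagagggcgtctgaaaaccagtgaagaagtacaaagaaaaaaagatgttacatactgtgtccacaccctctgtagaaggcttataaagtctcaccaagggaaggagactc
Krt32, chr11:100088270-100088519, minus strand: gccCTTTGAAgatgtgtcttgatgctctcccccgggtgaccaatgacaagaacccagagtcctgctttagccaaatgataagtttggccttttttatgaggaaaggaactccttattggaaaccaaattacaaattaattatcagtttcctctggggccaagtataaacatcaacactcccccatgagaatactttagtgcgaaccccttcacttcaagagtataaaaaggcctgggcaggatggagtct
CTTTGAA was found in 5 of 9 shaft keratins with a promoter and in 5.19% of all promoters. TTTGAA, which it contains, was found in 8 of the 9 and in 18.26% of all.

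Keratin-associated proteins, which bond the keratin filaments of the shaft, were divided. Of 56 genes 39 fell and 4 rose, with a median of -0.97, and without refractory telogen replicate 2 the counts were 51 and 4. Krtap15 read 4822, 4976 and 4760 FPKM in catagen and 316, 756 and 301 in refractory telogen, a fall of 3.54, and Krtap19-2 fell by 3.46. Krtap20-2 went the other way, from 39.0, 38.0 and 34.5 FPKM to 618, 441 and 704 FPKM, a rise of 3.92 (SE 0.17, limma adjusted p = 2.49e-05). Krtap6-3 rose by 3.23, from 154, 157 and 166 to 1632, 1120 and 1823 FPKM, and Krtap21-1 and Krtap6-2 by 1.11 and 0.93. All 4 that rose belong to the glycine and tyrosine rich type, as does Krtap19-2. Genes of this family are near copies of each other and can share reads, and Krtap15 also overlaps a transcript on its own strand, so single members are uncertain.

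**Figure D2:**
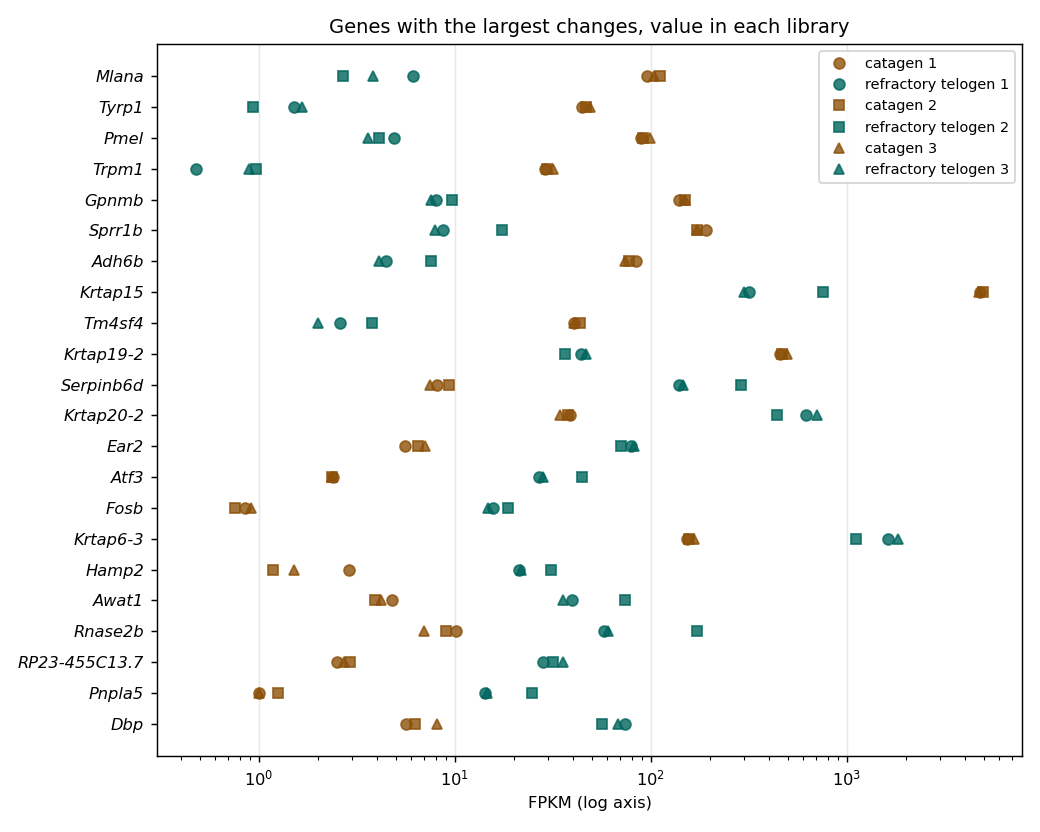
FPKM of each library (log axis) for 22 of the 24 genes with the largest falls and rises, with catagen in brown and refractory telogen in green. The 2 genes left out are listed at 0 in refractory telogen. In each of the 22 genes the groups are separate, as in Mlana (at least 96.3 FPKM in catagen and at most 6.14 FPKM in refractory telogen).

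Other genes with the deepest falls were Gpnmb, a glycoprotein of melanosomes and phagocytes (140, 149 and 150 FPKM, then 8.06, 9.67 and 7.55), Sprr1b, a cornified envelope precursor, Adh6b, an alcohol dehydrogenase, and Tm4sf4, a membrane protein. Sprr1b read 193, 172 and 172 FPKM in catagen and 8.74, 17.5 and 7.91 FPKM in refractory telogen. The mitochondrial leucine tRNA mt-Tl1 (26.6, 68.3 and 44.6 FPKM in catagen) and AL672160.1 (6.42, 15.8 and 9.51 FPKM) were listed at 0 in all 3 refractory telogen libraries. Both genes are very short, so these values are uncertain. At the other end, Serpinb6d, a serine protease inhibitor, had the largest rise, from 8.15, 9.39 and 7.53 FPKM to 140, 289 and 147 FPKM, or 4.29 (SE 0.28, limma adjusted p = 7.51e-05). Serpinb6d rose by 3.96 without refractory telogen replicate 2. Hamp2, a hepcidin, rose from 1.19 to 2.90 FPKM to 21.3, 31.2 and 21.8 FPKM. RP23-455C13.7, with no described function, rose from 2.52, 2.93 and 2.72 FPKM to 28.4, 31.6 and 35.6 FPKM.

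Markers of the resting follicle rose. Krt15, a keratin of bulge and basal cells, read 917, 873 and 830 FPKM in catagen and 4429, 3108 and 4257 in refractory telogen, a rise of 2.15 (SE 0.15, limma adjusted p = 0.000101). Nfatc1, which holds bulge stem cells at rest, rose by 2.08, from 4.03, 3.75 and 3.56 FPKM to 21.0, 15.6 and 21.6 FPKM. Gas1, a Hedgehog co-receptor of the hair germ, and Krt24 rose by 1.97 and 1.81. The list as a whole had 14 of 19 genes higher and 1 lower, at a median of 0.79. Gli1, a Hedgehog target, was the 1 that fell, by 0.62. Lhx2, Sox9, Id4 and Foxc1 were not called, with changes of 0.21, 0.24, 0.08 and -0.02.

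Keratins of the outer sheath and companion layer split. Krt75, of the companion layer, read 249, 295 and 302 FPKM and then 89.2, 116 and 84.5 FPKM, a fall of 1.54, and Krt17 fell by 0.51. Krt79, which marks the upper follicle canal, rose by 1.74, from 137, 146 and 146 FPKM to 494, 484 and 463 FPKM, and Krt16 rose by 1.37. Of the dermal papilla genes 8 rose and 5 fell among 19 tested, near the background in both directions, with a median of 0.14 (9 and 5 without refractory telogen replicate 2). Crabp1 (17.8, 20.1 and 20.5 FPKM, then 49.3, 39.3 and 48.3) and Enpp2 were higher, and Wif1 and Inhba lower.

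Among signalling genes, the secreted BMP antagonists rose together while BMP ligands were divided. BMPs hold hair stem cells at rest, and antagonists such as noggin and the gremlins bind them outside the cell. Bmp4 read 33.4, 30.8 and 31.4 FPKM in catagen and 25.8, 22.6 and 25.5 FPKM in refractory telogen, a fall of 0.36 (SE 0.08, limma adjusted p = 0.00735). Bmp8a fell by 1.56 and Bmp7 by 0.37, while Bmp1 (a protease grouped with the ligands by name), Bmp3 and Gdf11 rose by 0.50, 0.67 and 0.68. Bmp2 and Bmp6 were not called, at 8.88 to 11.4 FPKM and 0.61 to 1.17 FPKM over the 6 libraries.

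Of 13 BMP antagonists 12 rose and none fell, with a median of 0.77, against 34.7% higher among all genes. Fst (follistatin) read 13.3, 13.7 and 14.04 FPKM in catagen and 44.8, 44.9 and 44.3 in refractory telogen, with very little spread in either group, a rise of 1.64 (SE 0.06, limma adjusted p = 1.63e-05). Grem1 read 1.59, 1.53 and 1.82 FPKM and then 8.86, 6.56 and 9.43 FPKM, a rise of 1.80. Nbl1 rose by 1.92, from 29.9, 28.5 and 28.7 FPKM to 135, 84.8 and 124 FPKM, with refractory telogen replicate 2 the lowest. Fstl1, Sostdc1, which also inhibits WNT, and Nog (0.65, 0.29 and 0.26 FPKM, then 1.13, 0.98 and 1.59) rose by 1.17, 0.75 and 0.68. Chrd, Fstl3, Twsg1, Chrdl1 and Dand5 were also among those that rose, and Bmper was not called (change of -0.09). Of the 7 genes that respond to BMP, 4 fell and none rose. Bambi, a decoy receptor, fell by 1.87, from 56.6, 56.1 and 56.8 FPKM to 13.4, 19.0 and 12.6 FPKM, and Smad7, Smad6 and Id3 fell by 0.84, 0.74 and 0.45. Id1 and Id2, direct targets of BMP, changed by 0.07 and 0.15 and were not called.

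**Figure D3:**
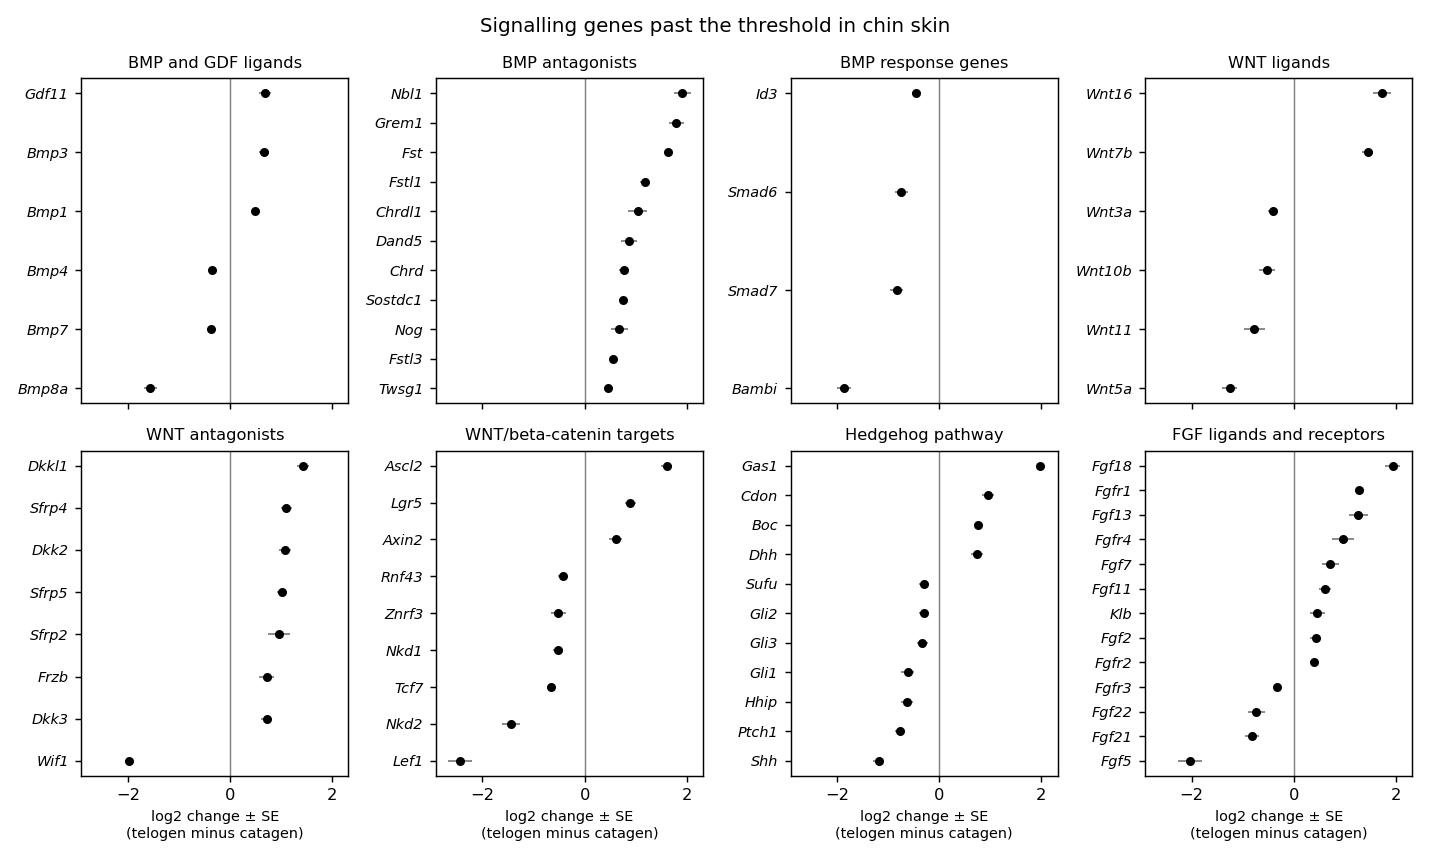
Points give the log2 change (refractory telogen minus catagen) of signalling genes past the threshold, with bars of 1 SE, in 8 lists. All BMP antagonists shown lie right of 0, up to Nbl1 at 1.92, and all BMP response genes shown lie left of 0, down to Bambi at -1.87. Genes not called, such as Id1 and Id2, are not drawn.

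WNT genes moved in both directions. WNT ligands activate beta-catenin in the hair germ and matrix, and the SFRP, DKK and WIF families block them. Wnt7b rose by 1.45, from 5.43, 5.58 and 6.15 FPKM to 17.2, 19.7 and 15.3 FPKM, and Wnt16 by 1.73. Wnt5a fell by 1.26 (21.8, 26.8 and 22.4 FPKM, then 7.63, 11.6 and 8.97). Wnt11, Wnt3a and Wnt10b fell by 0.77, 0.41 and 0.52, calls that were each lost when catagen replicate 1 was left out (limma adjusted p = 0.0548, 0.052 and 0.0786). That left 2 ligands higher and 4 lower among 13 tested.

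Of 12 WNT antagonists 7 rose and 1 fell, with a median of 0.72. Dkkl1, Sfrp4, Dkk2, Sfrp5, Sfrp2 and Dkk3 rose by 1.43, 1.11, 1.07, 1.03, 0.95 and 0.72, and Frzb also rose. Sfrp4 read 4.12, 3.15 and 3.95 FPKM and then 8.76, 9.83 and 8.93. Wif1 was the exception, at 23.3, 24.2 and 22.5 FPKM in catagen and 4.61, 5.46 and 5.47 in refractory telogen, a fall of 1.98 (SE 0.09, limma adjusted p = 2.41e-05). Targets of WNT were split, with 3 higher and 6 lower of 11. Lef1 (given above) and Nkd2, a feedback inhibitor, fell by 2.44 and 1.44, and Axin2, Lgr5 and Ascl2 rose by 0.61, 0.90 and 1.61. Axin2, the usual reporter of WNT activity, read 2.86, 2.69 and 3.96 FPKM and then 5.56, 5.05 and 5.27. Znrf3, among those that fell, lost its call when any catagen library or refractory telogen replicate 3 was left out.

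Hedgehog genes were mostly lower, 8 of 13, with 4 higher (6 and 4 without refractory telogen replicate 2). Shh, the ligand made by matrix and germ cells, read 2.80, 2.99 and 2.56 FPKM in catagen and 0.75, 0.73 and 0.51 in refractory telogen, a fall of 1.19 (SE 0.11, limma adjusted p = 0.000275). Ptch1, a receptor that the pathway itself induces, fell by 0.77, and Hhip by 0.63. Gas1 rose by 1.97 (34.5, 37.0 and 35.8 FPKM, then 146, 139 and 143), and Boc, another co-receptor, by 0.77. The falls of Gli2, Gli3 and Sufu were 0.30 to 0.33 and each lost its call without any 1 of the catagen libraries.

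Among FGF genes 9 rose and 4 fell of 15 tested. Fgf18 (chr11:33117430-33147400, minus strand), which is made in the bulge region and holds follicles in telogen, read 0.66, 1.18 and 0.88 FPKM in catagen and 6.64, 5.40 and 6.75 in refractory telogen, a rise of 1.93 (SE 0.14, limma adjusted p = 0.000108). Fgf5, which ends anagen, fell by 2.04, from 9.84, 10.2 and 9.15 FPKM to 1.15, 2.86 and 1.13 FPKM. Fgfr1 rose by 1.28 and Fgf7, a papilla growth factor, by 0.71, and Fgf22 fell by 0.74. The calls of Klb and Fgf2, both higher, were lost under other settings.

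In the insulin-like growth factor axis 8 of 10 genes rose and none fell, with a median of 1.48. Igfbp3 read 24.7, 25.2 and 27.1 FPKM and then 145, 116 and 142 FPKM, a rise of 2.33 (SE 0.10, limma adjusted p = 2.41e-05), and Igfbp5, Igfbp6 and Igf2 rose by 2.02, 1.94 and 1.78. Of 19 TGF-beta and activin genes 12 rose and 2 fell. Tgfbi, a matrix protein induced by TGF-beta, rose by 2.11, and Inhba, the activin A subunit, fell by 1.30, from 12.3, 13.5 and 12.5 FPKM to at most 4.95 FPKM in refractory telogen. In the EGF family 3 genes rose and 2 fell of 10, and in the Notch pathway 4 rose and 3 fell of 13 (5 and 4 without refractory telogen replicate 2), near the 34.7% higher and 20.5% lower among all genes. Btc, an EGF receptor ligand, rose by 1.57. Of the hormone receptors 8 of 16 rose and 1 fell, with Esr1 at 1.32, 1.11 and 1.01 FPKM and then 6.26, 5.73 and 6.54, a rise of 1.74.

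Epidermal genes rose, 12 of 16 with 1 lower and a median of 0.70. Krt1 and Krt10, the paired keratins of spinous cells, rose by 2.57 and 2.27. Krt10 read 179, 185 and 172 FPKM in catagen and 860, 910 and 827 in refractory telogen. Late cornified envelope genes, the outermost armour of the epidermis, rose in 15 of 19 (16 without refractory telogen replicate 2) with a median of 2.18, and the 3 that fell, Lce3a, Lce3c and Lce3d, were all of the third subfamily. Lce1m rose from 137, 178 and 173 FPKM to 981, 1054 and 837 FPKM, while Lce3d fell by 2.97, from 11.1, 10.5 and 16.0 FPKM to 0.39, 1.25 and 0.57. Small proline-rich proteins went down in 4 of 7 and up in 1. These families share near-identical sequence, so single members are uncertain.

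Genes of sebum synthesis rose, 11 of 14 with 3 lower and a median of 1.70. Awat1, a wax ester synthase, read 4.78, 3.92 and 4.22 FPKM in catagen and 39.8, 74.0 and 35.7 FPKM in refractory telogen, a rise of 3.19 (SE 0.26, limma adjusted p = 0.000168). Far2, which makes fatty alcohols, and Awat2 rose by 2.79 and 2.68, and the lipase Pnpla5 by 3.14. In Awat1, Awat2, Far2 and Pnpla5 the highest library was refractory telogen replicate 2. Elovl3, Mc5r and Prdm1 fell by 0.95, 0.63 and 0.67.

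Transcripts of skeletal muscle rose in 32 of 33 genes tested, with a median of 2.20. Their sum went from 5166, 5439 and 5345 FPKM in catagen to 31185, 19543 and 29240 FPKM in refractory telogen, or 0.55 to 0.56% and 2.04 to 3.25% of all FPKM. Tcap, a titin cap protein, read 96.7, 88.1 and 91.2 FPKM and then 894, 611 and 799, a rise of 3.03 (SE 0.14, limma adjusted p = 3.13e-05). Ckm and Ttn rose by 2.45 and 2.44. Tnni1, a slow fibre troponin, was the only gene of the list that fell, by 1.77. Actc1, of developing muscle, rose by 2.61, with 6 of 8 genes of its list higher. How much muscle each dissection held was not recorded in the labels, and its part in the changes of other dermal genes was not tested.

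Dermal and fat genes rose alongside. Of 28 dermal matrix genes 26 rose and 1 fell, with a median of 1.30. Dpt, which organises collagen fibrils, read 72.8, 75.5 and 77.0 FPKM in catagen and 372, 380 and 372 FPKM in refractory telogen, a rise of 2.30 (SE 0.06, limma adjusted p = 1.05e-05). Col1a1 read 170, 153 and 149 FPKM and then 685, 317 and 684, with refractory telogen replicate 2 at less than the level of its fellows but above catagen. Lum and Fmod rose by 2.14 and 2.21, and Tnc fell by 0.58. Matrix proteases and their inhibitors rose in 15 of 18 (16 without refractory telogen replicate 2), led by Mmp11 (6.29, 3.17 and 4.97 FPKM, then 53.4, 24.4 and 49.6) at 2.86. Mmp11 overlaps Chchd10 on the other strand.

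Of 25 adipocyte genes 23 rose and none fell, with a median of 1.43. Thrsp, a regulator of lipid synthesis, rose by 2.39, from 23.4, 22.4 and 20.4 FPKM to 126, 108 and 125 FPKM. Cfd (adipsin), Cidec and Plin1, a lipid droplet coat, rose by 2.40, 2.00 and 1.93. The 2 not called were Fabp4 and Acly. The adipocyte sum, at 8436, 7850 and 8147 FPKM in refractory telogen, varied less between replicates than that of muscle. Blood vessel genes rose in 17 of 18 (Cldn5 by 1.62), lymph vessel genes in 6 of 6 and Schwann cell genes in 9 of 12. Smooth muscle genes rose in 11 of 12 with a median of 0.89, and Des, which skeletal muscle also makes, by 2.47. No gene was lower in any of these 4 lists.

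Immune genes were higher. Of 28 macrophage and antigen presentation genes 25 rose and 1 fell, at a median of 1.94 (2.28 without refractory telogen replicate 2). H2-Eb1, a class II antigen presentation gene, read 47.5, 55.6 and 53.0 FPKM in catagen and 486, 229 and 474 FPKM in refractory telogen, a rise of 2.83 (SE 0.29, limma adjusted p = 0.000357). Lyz2, macrophage lysozyme, rose by 2.58 and Tyrobp by 2.55. The list's sum was 638 to 684 FPKM in catagen and 4842, 2237 and 4736 FPKM in refractory telogen, so refractory telogen replicate 2 lay between the others and catagen. Siglec1 fell by 0.66. Ear2, an eosinophil-associated ribonuclease that some macrophages also make, was among the largest rises, at 5.59, 6.49 and 7.07 FPKM and then 79.8, 70.3 and 81.9. Rnase2b, a gene of the same ribonuclease family, rose by 3.15 and by 2.65 without refractory telogen replicate 2, where it read 173 FPKM against 58.0 and 60.8.

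Chemokines rose in 25 of 27 genes (24 without refractory telogen replicate 2) with none lower and a median of 1.48. Ccl24, which attracts eosinophils, read 1.46, 2.20 and 1.92 FPKM and then 22.5, 17.0 and 23.4 FPKM, a rise of 2.94 (SE 0.15, limma adjusted p = 4.06e-05). Ccl7, Cxcl1 and Ccl11 rose by 2.51, 2.47 and 2.37. T cell and natural killer genes rose in 10 of 12, with Cd3g, a T cell receptor subunit, up by 1.90. Mast cell genes rose in 8 of 11, among them Cma1 and Mcpt4, mast cell proteases, at 1.86 and 1.78, while Kit, shared with melanocytes, fell by 0.82. Neutrophil genes were not raised together, with 1 higher and 2 lower of 5. S100a8 fell by 2.31, from 138, 151 and 154 FPKM to 24.0, 46.1 and 22.0, and keratinocytes also make it.

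Of the patterning genes that mark body position, 7 of 19 Hox genes rose and 1 fell (7 and 2 without refractory telogen replicate 2), with the share that rose near the 34.7% of all genes. Hoxd4 had the largest Hox change, at 0.27, 0.62 and 0.12 FPKM and then 3.42, 2.87 and 2.52. Dlx5, a homeobox gene of the jaw, rose by 1.12, from 2.29 to 2.90 FPKM to 5.83 to 7.68 FPKM. Among 7 red blood cell genes 2 rose and 1 fell, near the 34.7% higher and 20.5% lower among all genes. Without refractory telogen replicate 2 the counts were 4 and 1, with a median of 1.08 in place of 0.71. In the fit of all 6 libraries the rises of the globins Hbb-bt and Hba-a1 were called, and both calls were lost when catagen replicate 1 or refractory telogen replicate 1 or 3 was left out.

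Genes of cell death and clearance were mixed. Of 31 apoptosis genes 13 rose and 5 fell, close to the background, and without refractory telogen replicate 2 the counts were 17 and 4. Casp12, Bik and Fas rose by 1.34, 1.30 and 1.06. Of 23 phagocytosis and lysosome genes 14 rose and 2 fell (17 and 3 without refractory telogen replicate 2). Ctsk and Ctss, cathepsins of phagocytes, rose by 2.28 and 1.97, and Gpnmb (above) fell by 3.97.

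Immediate early genes, which respond within minutes to stimuli including handling and dissection, rose in 19 of 22, with Egr3 lower and a median of 0.86 (18 higher and none lower without refractory telogen replicate 2). Atf3 read 2.39, 2.38 and 2.36 FPKM in catagen and 26.9, 44.4 and 28.2 in refractory telogen, a rise of 3.30 (SE 0.19, limma adjusted p = 4.94e-05). Fosb, Nr4a1 and Fos rose by 3.24, 3.12 and 2.77. Nr4a1 was even across its group, at 69.5, 70.2 and 69.3 FPKM after 7.08, 7.41 and 6.97. TGACG, core letters of the CREB site, stood in 11 of 17 promoters of the list and in 19.79% of all.

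Most clock genes rose. Dbp, an output gene driven directly by CLOCK and ARNTL, read 5.65, 6.27 and 8.13 FPKM in catagen and 73.7, 56.6 and 67.9 in refractory telogen, a rise of 3.13 (SE 0.15, limma adjusted p = 3.19e-05). Per3, Tef and Nr1d1, other genes of the clock list, rose by 2.24, 1.79 and 1.73. Cry1 and Nfil3, which peak at another phase of the day, fell by 0.77 and 0.44, and Arntl was not called (5.90 to 6.97 FPKM over all 6 libraries). Of 19 clock genes 15 rose and 2 fell, against 34.7% higher and 20.5% lower among all genes. The hour of collection was not given in the labels, so hair cycle stage and hour cannot be told apart in these values. Dbp overlaps Sphk2 and Nr1d1 overlaps Thra on the other strand. The E-box CACGTG stood in 5 of 16 clock promoters and in 6.86% of all.

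Cytosolic ribosomal protein genes fell in 48 of 86 and rose in 2, with a median of -0.39 (52 and 2 without refractory telogen replicate 2). The 2 that rose, Rpl3l and Rpl39l, are paralogues with restricted expression, and Rpl3l is made in striated muscle. Rpl27 read 105, 127 and 120 FPKM and then 48.8, 66.6 and 53.8, a fall of 1.05. Nuclear subunits of the respiratory chain rose in 33 of 89, near the 34.7% of all genes, and fell in 5. Scaled by the median of ratios, 16 rose and 17 fell. Without refractory telogen replicate 2 the counts were 44 and 4. Cox6a2 and Cox8b, isoforms of muscle, rose by 2.21 and 2.15, along with the muscle list. Mitochondrially encoded genes rose in 7 of 13, mt-Co2 by 1.27.

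The study drew up lists of putative activators and inhibitors of hair growth from microarrays of dorsal skin, each in 2 groups. Members were picked because their time course resembled that of the activator or inhibitor simulated by the study's model. The direction of a list between stages is therefore not independent of how its members were picked. Counts without refractory telogen replicate 2 are in parentheses. In chin skin the first activator group fell in 114 of 138 genes (112) and rose in 4 (5), with a median of -0.80, and the second rose in 77 of 95 (83) and fell in 2 (2), with a median of 0.84. The first holds many division genes, such as Ccnb1, Birc5 and Kif20a (a fall of 2.00). The second includes Dbp, Nr4a1, Psmb9 and Mef2c, the last of which is also a muscle factor. Among inhibitors, the first group fell in 40 of 74 (43) with 9 higher (10), and the second in 27 of 45 (27) with 1 higher (1). Slc6a13 fell most in the first inhibitor group, by 2.67 (22.8, 19.5 and 18.4 FPKM, then 2.25, 3.28 and 1.66), and Lef1 in the second.

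Where the 2 stages stood in the whole chin cycle was read from the summed FPKM of the lists at all 6 labelled chin stages, as levels without a test. Competent telogen is listed last, but in the study it was the first telogen, ahead of early anagen. It therefore did not follow the refractory telogen libraries, which came from the second telogen. The cell cycle sum was 1024 to 1362 FPKM in early anagen, 642 to 882 in mid anagen, 594 to 620 in late anagen, 863 to 892 in catagen, 258 to 296 in refractory telogen and 1155 to 1248 in competent telogen. Refractory telogen was thus the low point, and catagen libraries lay above those of late anagen. By the outline of the cycle given above, division stops in catagen and telogen is a rest. The catagen and competent telogen sums went against that outline, for a reason not tested, and stages here are as labelled. Shaft keratins summed to 10102 to 10777 FPKM in late anagen and 9495 to 10171 in catagen, while keratin-associated proteins, also of the shaft, summed to 132585 to 138476 FPKM in late anagen and 77127 to 80572 FPKM in catagen. The inner root sheath sum was highest in catagen, at 28099 to 29658 FPKM. Pigment genes were lowest in refractory telogen, at 49.5 to 52.1 FPKM, against 254 to 457 FPKM at every other stage.

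Several groups that rose from catagen to refractory telogen were also higher there than at any other chin stage. The stem cell sum was 3797 to 5152 FPKM in refractory telogen and 3121 to 3123 FPKM in competent telogen, the next highest. Most of it was Krt15, at 4429, 3108 and 4257 FPKM in refractory telogen and 2513 and 2557 in competent telogen. Nfatc1 and Gas1 were also higher in refractory than in competent telogen, while Krt24 and Lgr5 overlapped between these stages. Muscle stood at 19543 to 31185 FPKM in refractory telogen, 8912 to 9157 in late anagen and 425 to 1747 FPKM in early and mid anagen and competent telogen. The macrophage sum was 2237 to 4842 FPKM against 568 to 1332 elsewhere. The dermal matrix sum, at 3331 to 5144 FPKM, overlapped that of early anagen, at 3556 to 4126 FPKM. Single genes followed other courses. Mlana was lowest in refractory telogen, and Dbp, at 4.24 to 8.13 FPKM in competent telogen, early anagen and catagen, read 30.8 to 34.1 FPKM in mid and late anagen. Krtap20-2 was listed at 0 in competent telogen and early anagen and reached 321 and 329 FPKM in late anagen before the catagen values of 34.5 to 39.0 FPKM.

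**Figure D4:**
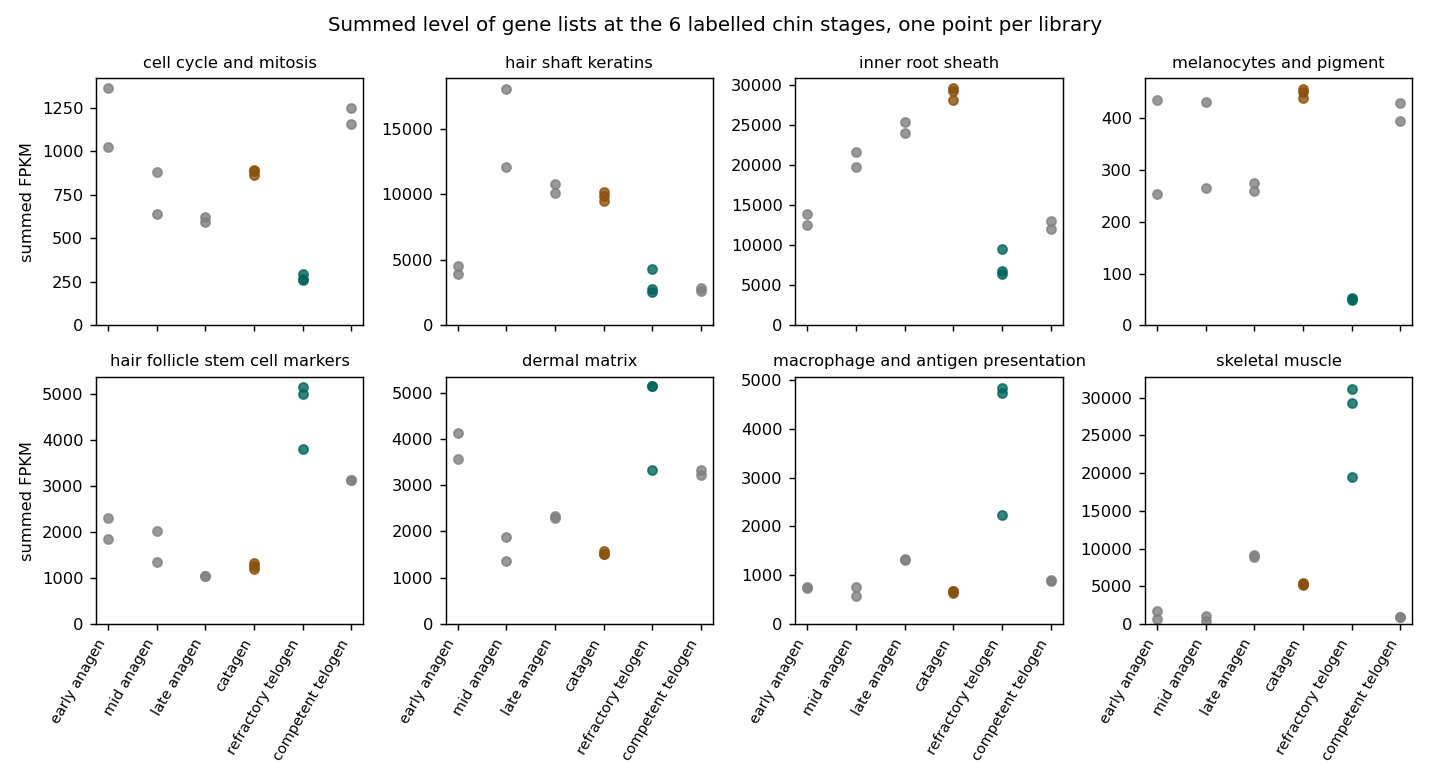
Summed FPKM (linear axis from 0) of 8 gene lists at the 6 chin stages, with 1 point for each library, catagen in brown and refractory telogen in green. Competent telogen, drawn last, was the first telogen of the study and came before early anagen. Cell cycle and pigment sums are lowest in refractory telogen (258 to 296 and 49.5 to 52.1 FPKM), where the stem cell, macrophage and muscle sums are highest. Most of the stem cell sum is Krt15.

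The same step was then set beside that of dorsal and ventral skin, which had 2 libraries per stage, in a fit of 14 libraries and 19124 genes. The chin change differed from the dorsal change in 7260 genes (38.0%), with 4964 more positive and 2296 more negative in chin, and from the ventral change in 2325 genes (12.2%), 1731 and 594. Both counts use the same chin libraries, and the list counts below are to be read against these counts over all 19124 genes. The labels of ventral catagen replicate 1 give an ear location in the tissue field and ventral skin in the title, and it was grouped by the latter. The split depended on scaling, since by the median of ratios 52.5% of the differences from dorsal skin were positive in place of 68.4%, and 42.2% in place of 74.5% for ventral skin. The count for ventral skin rested on single libraries and ran from 1108 without ventral catagen replicate 1 to 5222 without ventral refractory telogen replicate 1.

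Division genes fell in all 3 domains, with list medians of -1.69 in chin, -2.13 in dorsal and -1.65 in ventral skin, and 37 of 38 lower in each. Ccnb1 fell by 2.56, 2.65 and 2.40, and neither difference from chin was called. Still, 16 of the 38 division genes fell less in chin than in dorsal skin and 1 fell more. Over all 19124 genes, 4964 were more positive and 2296 more negative in chin than in dorsal skin. Against ventral skin 1 gene fell less in chin. Pigment genes also fell in each domain, at medians of -2.41, -3.43 and -2.58, and 12 of 15 fell less in chin than in dorsal skin. Mlana fell by 7.35 in dorsal skin, from a catagen level of 466 FPKM, and by 4.92 in ventral skin.

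The hair keratins set chin apart. The shaft keratin median was -1.55 in chin, 0.27 in dorsal and -0.42 in ventral skin, and the chin change was more negative in 12 of 14 genes against dorsal and 11 of 14 against ventral skin. The sheath medians were -1.96, -0.21 and -0.51, with 11 of 11 and 8 of 11 more negative in chin. Krt71 fell by 2.11 in chin, rose by 1.07 in dorsal skin (limma adjusted p = 0.00088) and was not called in ventral skin (change of -0.52). Krt35 fell by 3.08 in chin and by 1.36 in ventral skin, and its dorsal change of -0.04 was not called.

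Dermal, fat, macrophage and muscle lists had positive medians in chin and ventral skin and medians between -0.36 and 0.26 in dorsal skin. The adipocyte medians were 1.43, 1.42 and -0.36 in chin, ventral and dorsal skin, and 17 of 25 genes were more positive in chin than in dorsal skin and 1 more negative. Against ventral skin 1 of the 25 was more positive in chin and 6 were more negative. Dermal matrix medians were 1.30, 1.13 and -0.25, and macrophage medians 1.94, 1.21 and -0.12. Muscle medians were 2.20, 1.54 and 0.26, with 30 and 13 of 34 genes more positive in chin than in dorsal and ventral skin. Clock genes had a median of 1.27 in chin against 0.35 in dorsal and 0.39 in ventral skin, and 12 and 10 of 19 were more positive in chin, with 1 and none more negative. Dbp rose by 3.13 in chin and 1.11 in ventral skin, and its dorsal change of 0.35 was not called. BMP antagonists had medians of 0.77, 0.28 and 0.70 in chin, dorsal and ventral skin. Of the 13, 7 were more positive and 1 more negative in chin than in dorsal skin. Only 1 was more positive than in ventral skin, near the share of all genes (1731 of 19124).

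**Figure D5:**
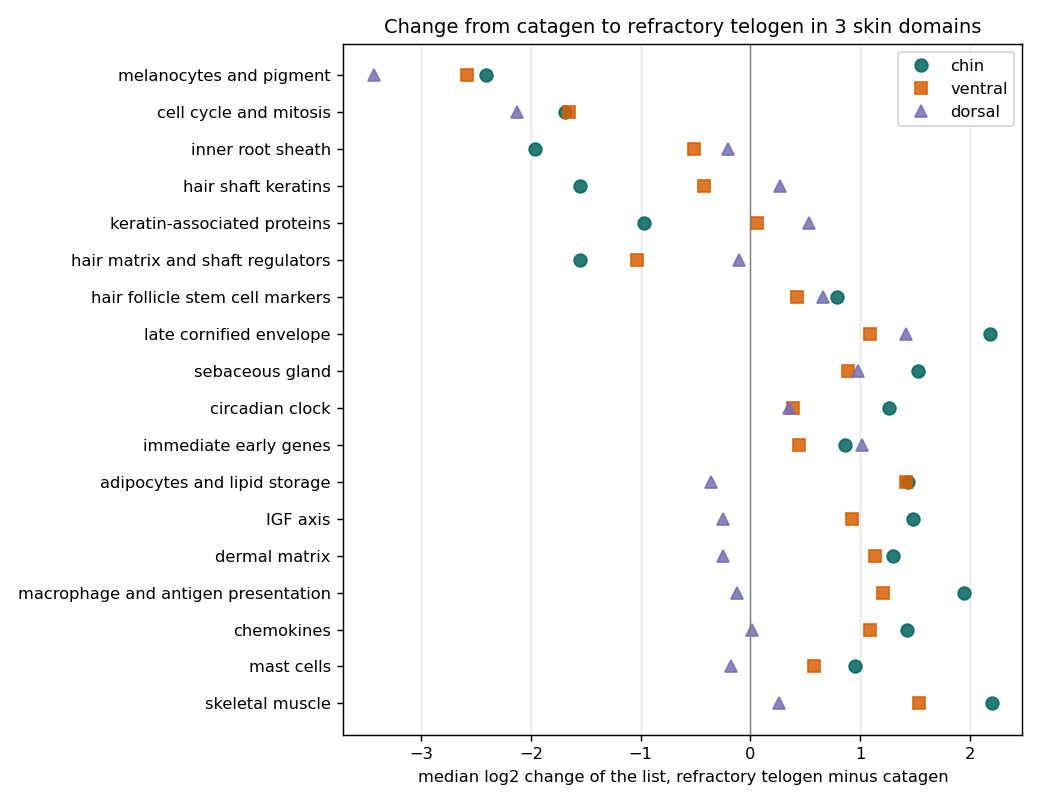
Median log2 change from catagen to refractory telogen of 18 gene lists in chin (circles, 3 libraries a stage), ventral (squares, 2 a stage) and dorsal skin (triangles, 2 a stage). Division and pigment lists are negative in all 3 domains, hair keratin lists are most negative in chin (-1.55 for the shaft), and the adipocyte list is positive in chin and ventral skin (1.43 and 1.42) and negative in dorsal skin (-0.36).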

How the data were processed

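Total RNA of whole C57BL/6 mouse skin was made into SMART-seq2 and Nextera libraries, which do not keep strand. The authors deposited FPKM values per gene, written to 2 decimals, from RSEM 1.2.25 on mm10 with the GENCODE vM8 annotation, per the labels and methods. The methods state a batch correction without naming batches, so whether it altered these values is not given in the sources used here.

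Only FPKM was used, so the main test was limma 3.58.1 in R 4.3.3 on log2(FPKM + 1), with empirical Bayes moderation and a variance trend. Genes needed 0.5 FPKM in at least 2 of the libraries fitted. Adjusted p-values are Benjamini-Hochberg over all genes tested. The chin comparison used 6 libraries without covariates, and the comparison of domains used 14 libraries in 6 groups. Column names matched all libraries to labels. The ear table was not used here, and a few genes are not reported here by name. The pipeline was tested on simulated data.

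The comparison and the gene lists were chosen with earlier results of these data known. Named genes were the 12 largest changes in each direction with separate groups and a mean of at least 5 FPKM in the higher group, every called member of the signalling lists, the 4 largest called changes of each other list by absolute log2 change, and the 4 largest differences from each other domain. Exceptions within lists, markers and genes named for their course over the cycle were added after their values were seen. Depth per library came from the spacing of low FPKM values, of which 80.6% to 82.7% came out as whole fragments within a tolerance of 0.15. It limits low genes most. Positions of genes, and genes that overlap them, were read from the GENCODE vM21 annotation of GRCm38. Replicate numbers did not pair the libraries. Alternatives were other pseudocounts, filters, scalings and fits, a replicate block, each library left out, and, chosen after seeing the data, refractory telogen replicates 1 and 3 averaged as 1 sample.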

Additional observations from a re-analysis of the deposited data

Results flagged for a closer look

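The change from catagen to refractory telogen differed between chin and dorsal skin in 7260 genes and between chin and ventral skin in 2325 genes, by a test of the difference itself in limma. The genes with the largest differences are given here with their values, and the differences are chin minus the other domain on the log2(FPKM + 1) scale.

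Apoc4, an apolipoprotein gene, had a difference from dorsal skin of 6.29 (limma adjusted p = 7.79e-06). It read 2.22 to 3.71 FPKM in chin catagen and 17.3, 7.41 and 19.8 FPKM in chin refractory telogen, against 27.2 and 22.2 FPKM and then 0.48 and 0.12 FPKM in dorsal skin. Thrsp, which acts in lipid synthesis, had a difference of 5.55, with dorsal levels of 70.4 and 71.1 FPKM in catagen and 6.78 and 7.28 FPKM in refractory telogen. Both genes rose in chin and fell in dorsal skin.

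Krt80, an epithelial keratin, had a difference from dorsal skin of -5.81. It was steady in chin, at 65.8 to 85.5 FPKM over both stages, while dorsal catagen read 0.24 and 0.86 FPKM and dorsal refractory telogen 88.0 and 79.6 FPKM. Rps12, a ribosomal protein gene whose span holds small nucleolar RNA genes, had a difference of -5.83. Both dorsal catagen libraries are listed at 0 for it, while the chin libraries of catagen and refractory telogen read 96.7 to 230.0 FPKM.

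The largest difference from ventral skin was that of mt-Tl1, a mitochondrial tRNA, at -7.86. Among the ventral and dorsal libraries of catagen and refractory telogen, mt-Tl1 was listed at 0 in all but ventral refractory telogen replicate 2 (26.5 FPKM). Krtap20-2 rose in all domains and less in chin, with a difference of -4.02 from ventral skin, where it went from 10.2 and 9.57 FPKM to 2272 and 3140 FPKM. Upk3a, a uroplakin, and Krt19, a keratin of simple and glandular epithelia, had differences of -4.61 and -3.89. Upk3a read 24.96 and 20.67 FPKM in ventral refractory telogen and at most 0.10 FPKM in the other 12 libraries of that fit, and Krt19 read 58.1 and 52.9 FPKM there against 1.18 to 4.33 FPKM in the other 12. The ventral refractory telogen libraries also held more Krt8 (24.1 and 28.6 FPKM) and Aqp5 (11.3 and 12.9 FPKM) than the other 12 libraries of that fit. The part of other tissue in these values was not tested.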

How the results depend on the processing

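The counts of 6143 higher and 3638 lower genes kept to within 1.5 times under all but 1 setting. With a minimum of 5 FPKM, which tests fewer genes, 3978 were higher. Leaving out 1 library at a time gave 5191 to 6409 higher and 3047 to 3670 lower genes. The replicate block gave 5526 higher and 3242 lower genes, 6891 that differed from dorsal skin and 1774 that differed from ventral skin. Libraries with the same replicate number did not deviate together (correlations of -0.03, -0.01 and 0.04), so the numbers were not used as pairs. Averaging refractory telogen replicates 1 and 3, a setting chosen after seeing the data, gave 5399 higher and 3225 lower genes.

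Scaling mattered for direction more than for number. The median of ratios gave 4792 higher and 5040 lower genes, and quantile normalization gave 4680 and 4941. The count of differences from dorsal skin was 5461 to 8898 when 1 library was left out. That from ventral skin was 1108 to 5222, the lowest without ventral catagen replicate 1 and the highest without ventral refractory telogen replicate 1. With all 43 skin libraries in 1 fit it was 3992. The cause was not tested.

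Of 256 named genes tested, 254 were called and 239 kept their direction and call in every alternative that tested them, of 16 run. With a minimum of 5 FPKM 210 of the named genes were tested. The 15 that lost the call in at least 1 alternative included Wnt3a, Wnt11, Wnt10b, Znrf3, Gli3, Sufu, Gli2, Klb, Fgf2, Reln, Amy1, Hbb-bt, Hba-a1 and Rps12. The 2 named genes not called in chin were near 0 and changed sign. Krt80 (change of -0.01) ran from -0.082 to 0.10 when 1 library was left out, at 0.02 without chin catagen replicate 2 and 0.10 without chin refractory telogen replicate 2. Krt19 (change of -0.10) ran from -0.32 to 0.054, the highest without chin catagen replicate 3.

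At these depths, and with 3 libraries a group, changes of genes near 1 FPKM are the least certain. The p-values cannot cover differences between mice if replicates shared an animal.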
